A study of Mus musculus with 4 samples.

Results

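The genes described here attach ubiquitin or a ubiquitin-like protein to other proteins. They were taken from the ubiquitin mediated proteolysis row of a KEGG pathway table, which holds genes with a differential N6-methyladenosine (m6A) peak between GR-transfected and control MIN6 cells. The row gave 77 Ensembl gene IDs tied to 67 Entrez genes. Leaving out 11 Entrez genes that stand in the GO rows for DNA repair (8) or sister chromatid segregation (3) gave 56 genes with 66 IDs, of 9225 IDs in the whole gene table. Being listed there chose the genes, so that fact is a description and was not tested.

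MIN6 is a mouse insulinoma line, labelled C57BL/6, which stands in for pancreatic beta cells. Cells received either a GR expression vector (GR is read here as the glucocorticoid receptor) or a control vector by Lipofectamine (10 µg of plasmid a dish). RNA was collected at 24 hours. The labels name no added glucocorticoid. Each arm has 1 library of m6A-immunoprecipitated RNA and 1 input library, 4 in all. The tables compare GR with control and give no level per library, so no gene below has a replicate check, a depth or an RNA level, and a gain of m6A cannot be told from a loss. Of 8 beta-cell marker genes, 6 were in the gene table (75.0%, against 25.2% of all protein-coding genes) and Ins2 and Iapp were not, but their levels could not be read from it.

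Ubiquitin is activated by an E1 enzyme, passed to an E2 conjugating enzyme and placed on a substrate with the help of an E3 ligase. HECT ligases carry the ubiquitin themselves before they hand it on, whereas RING and U-box ligases bring the E2 and the substrate together. Cullin-RING ligases and the anaphase-promoting complex (APC/C) are assemblies in which a scaffold holds a RING subunit at its one end and exchangeable substrate receptors at the other. SUMO and NEDD8 are ubiquitin-like proteins with E1 and E2 enzymes of their own. Chains of ubiquitin can send a protein to the proteasome, which in beta cells disposes of misfolded proinsulin among other substrates.

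By role, the 56 genes were 3 E1, 14 E2, 5 HECT, 14 RING or U-box, 16 cullin-complex and 3 APC/C genes, and AA414768 was given no role. The value that varies among them is the number of lines a gene has in the table of genes related to differential peaks. The sources used here do not say what a line represents, and it is not a measure of the size or direction of an m6A change. Summed over all IDs tied to a gene, the 56 genes had 106 lines with a median of 2 and a range of 1 to 7, and 26 of them had 1 line. Those lines came from unlike sources: 62 belonged to 40 protein-coding genes under their own ID, 5 to a pair of pseudogene records (Ube2n-ps1 and Rbx1-ps), and 39 to 24 other gene models that the pathway row ties to a ubiquitin gene.

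**Figure D1:**
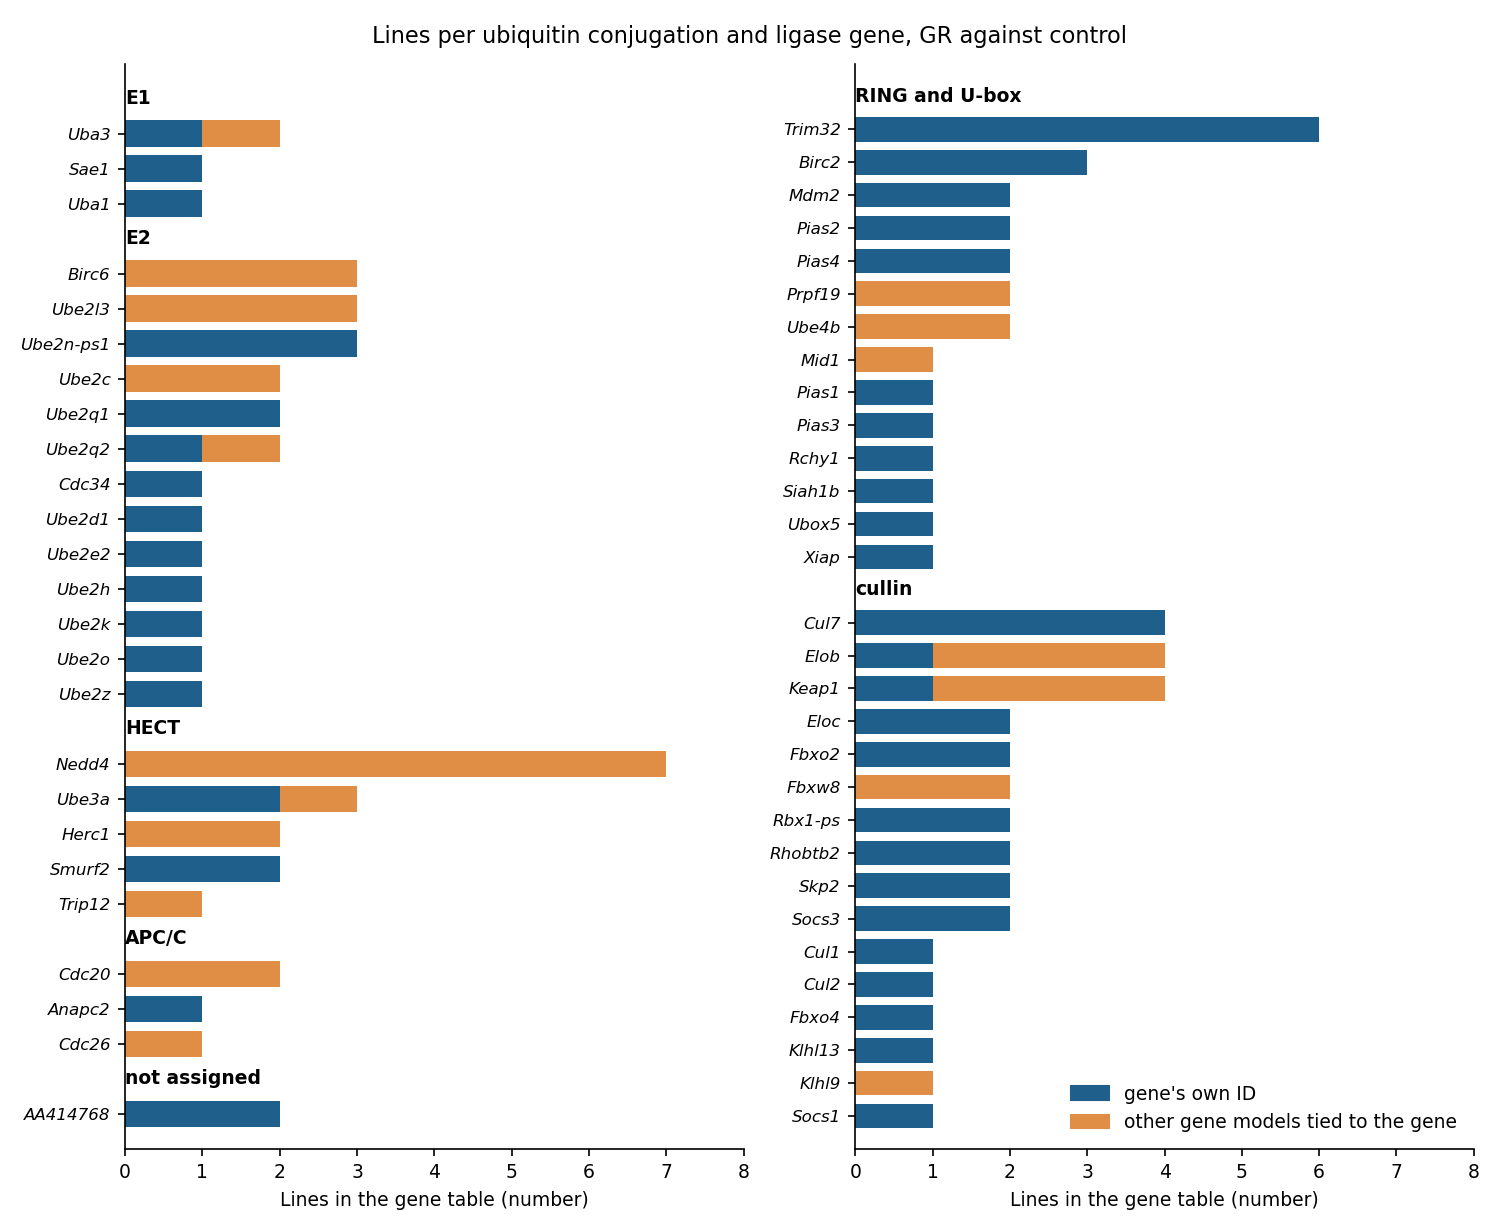
Lines in the gene table (horizontal axis, number) for the genes named in the text, grouped by role. Blue is the gene's own ID (for Ube2n-ps1 and Rbx1-ps the pseudogene record itself) and orange is other gene models tied to the gene. Trim32 has 6 lines of its own, whereas all 7 of Nedd4 belong to other models.

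All 3 E1 genes were listed under their own ID. Uba1, the main ubiquitin-activating enzyme, had 1 line (chromosome X, 20658302 to 20683179; coordinates here are RefSeq gene bounds in GRCm38.p6, the assembly behind mm10). Sae1, a subunit of the SUMO-activating enzyme, also had 1 line. Uba3, the catalytic subunit of the NEDD8-activating enzyme, had 1 line of its own and 1 through Gm14538, a pseudogene on chromosome X, for 2 in all. The other subunits of the SUMO and NEDD8 enzymes, Uba2 and Nae1, were absent from the gene table, as were Uba6 and Uba7. Absence does not show that a gene lacked a peak.

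Of the 14 E2 genes, 9 were protein-coding genes under their own ID. Ube2q1 had 2 lines and Ube2q2 had 1 of its own and 1 through the pseudogene Gm4895. Each of the remaining 7 had 1 line. These were Cdc34, which works with SCF ligases, Ube2d1, which serves many RING ligases, Ube2k, which builds K48-linked chains, Ube2z, which takes ubiquitin from Uba6, Ube2o, which can also act as a ligase, and Ube2e2 and Ube2h. The 9 share a ubiquitin-conjugating enzyme domain by the deposited domain text, which 12 listed protein-coding genes carry.

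The remaining E2 genes were in the row through other loci. Ube2l3, which feeds HECT and RBR ligases, was there only through the pseudogenes Gm10705, Gm11954 and Gm15267 on chromosomes 3, 11 and X, at 1 line each, while the gene itself is on chromosome 16. Gm15267 overlaps the bounds of Smc1a, which had 2 lines, so its line cannot be told apart from those of Smc1a. Ube2c, the E2 of the APC/C, was there through AC151284.1 (2 lines) and Birc6, a giant inhibitor of apoptosis with an E2 domain, through Gm26749 (3 lines). Neither of those models has a RefSeq record, so their class and position are not given. Ube2n-ps1, with 3 lines, is a pseudogene record that lies inside the bounds of Clock, a gene absent from the gene table.

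Among the 5 HECT genes only Ube3a and Smurf2 were listed under their own ID. Ube3a, the ligase lost in the brain in Angelman syndrome in humans, had 2 lines of its own (chromosome 7, 59228750 to 59310837) and 1 through Gm44560. Its bounds overlap those of the long non-coding RNA gene Snhg14, which had 1 line. Smurf2, which acts on SMAD proteins and TGF-beta receptors, had 2 lines. Nedd4, the founding member of the family that carries WW domains, had the highest sum of the set with 7 lines, 4 from Gm10629 and 3 from Gm26616, and none of its own. Herc1 was there through Gm28379 (2 lines) and Trip12 through the pseudogene Gm15425 (1 line) on chromosome 17, whereas Trip12 itself is on chromosome 1.

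Trim32 had the most lines of any of the 40 protein-coding genes under their own ID, with 6 (chromosome 4, 65604986 to 65616240). It encodes a RING ligase with NHL repeats that is mutated in a form of limb-girdle muscular dystrophy in humans. The gene lies inside the bounds of Astn2, which was absent from the gene table. Birc2 (cIAP1), which ubiquitinates RIPK1 in TNF signalling, had 3 lines (chromosome 9, 7818226 to 7837131), and its relative Xiap, a caspase inhibitor, had 1. Mdm2, the ligase that holds p53 in check, had 2 lines.

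All 4 PIAS genes, which encode SUMO ligases, were listed, against 25.2% of all protein-coding genes. Pias2 and Pias4 had 2 lines each, and Pias1 and Pias3 had 1 line each. By the deposited domain text they were the only listed protein-coding genes with a PINIT domain. That count covers listed genes only and is no separate evidence about the family. Rchy1 and Siah1b, both ligases linked to p53, and the U-box gene Ubox5 had 1 line each. Ubox5 shares its bounds with Fastkd5, which had 4 lines, and Rchy1 with Thap6, which had 1. The splicing factor and U-box ligase gene Prpf19 was in the row only through the pseudogene Gm7701 (2 lines), and Mid1, whose product binds microtubules, only through Mid1-ps1 on chromosome Y (1 line). Ube4b, which extends ubiquitin chains, was there only through Ube4bos3 (2 lines), a long non-coding RNA gene inside the bounds of Ube4b on chromosome 4.

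The cullin complexes gave 16 genes, 13 of them protein-coding under their own ID. Of the scaffolds, Cul7 had 4 lines (chromosome 17, 46650338 to 46664364), and Cul1 and Cul2 had 1 each. Cul3, also with 1 line, was left out as a chromatid segregation gene. Among substrate receptors of Cul1 complexes, Skp2, which marks the cell cycle inhibitor p27, and Fbxo2, which binds glycoproteins, had 2 lines each and Fbxo4 had 1. Fbxw8, a partner of Cul7, was there only through Gm9754 (2 lines).

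The adaptors that link SOCS-box and VHL proteins to Cul2 and Cul5 were both listed, Eloc with 2 lines and Elob with 1 of its own and 3 through the models Gm14521, 2210409E12Rik and CT033749.1. The SOCS-box genes Socs3 and Socs1, which damp cytokine receptors, had 2 lines and 1 line. Of the BTB adaptors of Cul3, Rhobtb2 had 2 lines and Klhl13 had 1. Klhl9 was there only through Gm26566 (1 line). Keap1, which holds the antioxidant factor NRF2 (Nfe2l2) at a low level, had 1 line of its own and 3 through Gm16754. Rbx1-ps, a pseudogene record of the RING subunit, had 2 lines.

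The APC/C drives the exit from mitosis, and of the 3 APC/C genes in the set its cullin-like scaffold gene Anapc2 was listed under its own ID, with 1 line. Anapc4, left out as a segregation gene, also had 1 line under its own ID. Cdc20, the activator, was in the row only through the pseudogene Gm7856 (2 lines) on chromosome 16, and Cdc26 only through Gm12650 (1 line). The last of the 56, AA414768, had 2 lines. The 11 genes left out included Brca1 with 4 lines, Stub1 with 3, Ube2a, Ube2b, Rbx1 and Fbxw7 with 2 each, and Pml, Fancl, Cul3 and Anapc4 with 1 each.

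In all, 14 of the 56 genes were in the row only through another gene model, and 0 of those 14 had their own ID in the gene table. That 0 follows largely from how the 14 were told apart and is a description only. The 14 genes were 4 of 14 E2, 3 of 5 HECT, 3 of 14 RING or U-box, 2 of 16 cullin and 2 of 3 APC/C genes, and none of the E1 genes. A further 5 genes (Uba3, Ube2q2, Ube3a, Elob and Keap1) had both their own ID and other models. RefSeq classes 13 of the 24 models as pseudogenes and 1 as a long non-coding RNA, and has no record under the name of the other 10. Of the 13 pseudogenes, 12 are on another chromosome than the gene they are tied to, and 4 lie inside the bounds of another gene. None of the 24 models has a protein domain in the deposited table. Reads of a gene and of a near-identical pseudogene can be assigned to either locus. Which locus the peaks of the 13 pseudogene models came from is therefore uncertain and was not tested. These 13 held 15 of the 39 lines of other models. The 10 models without a record held 22 lines and the long non-coding RNA 2. Whether those resemble the genes they are tied to is not known here, and the origin of their peaks was not tested either.

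The 40 protein-coding genes under their own ID had a median of 1 line and a mean of 1.55, against a median of 1 and a mean of 1.85 for all 5526 listed protein-coding genes. At least 2 lines were found for 15 of the 40 (37.5%, exact Clopper-Pearson 95% interval 22.7% to 54.2%), against 44.5% of all listed protein-coding genes. At least 3 lines were found for 3 of the 40 (7.50%), namely Trim32, Cul7 and Birc2, against 19.4%. With the left-out genes kept, 21 of 51 genes under their own protein-coding ID had at least 2 lines (41.2%, 27.6% to 55.8%). At least 3 lines were found for 5 of those 51 (9.80%). Both shares at 3 or more lines rest on few genes, and no interval was computed for them. The 177 genes of the DNA repair row had a mean of 1.98 lines and the 89 of the segregation row a mean of 1.72. Lines of a gene are not replicates, and no difference between these sets was tested. In RefSeq, 11 of the 40 genes overlap another gene, and for 5 of them (Elob, Pias3, Rchy1, Ube3a and Ubox5) that other gene was listed too. The same counts over all listed protein-coding genes were not made, so whether these are usual is not known. Whether peaks were assigned by strand is not stated, so lines of overlapping genes cannot be told apart.

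**Figure D2:**
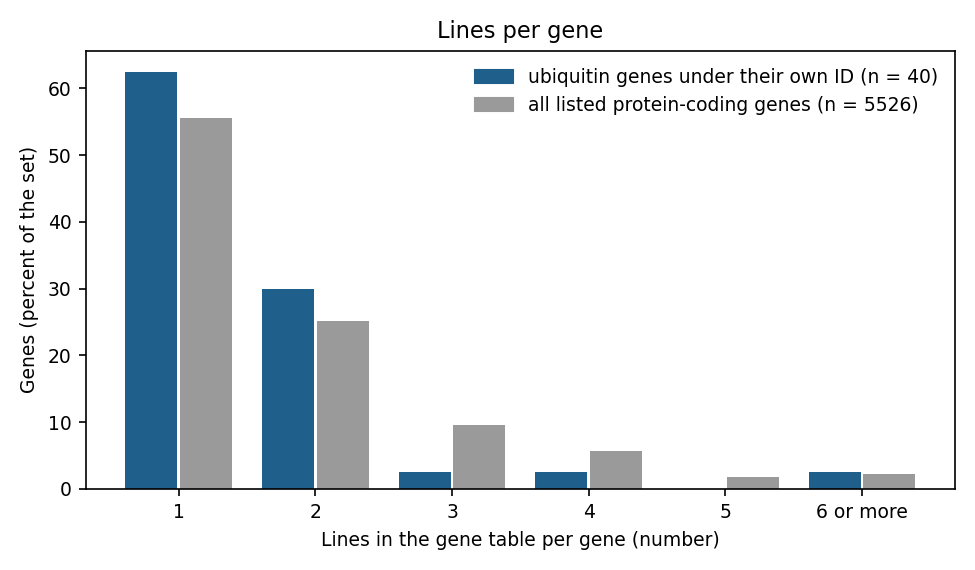
Percent of genes (vertical axis) with each number of lines in the gene table (horizontal axis), for the 40 ubiquitin genes under their own ID (blue) and all 5526 listed protein-coding genes (grey). Of the 40 genes, 25 had 1 line and 12 had 2 lines.

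In the authors' deposited table the ubiquitin mediated proteolysis pathway had 77 input IDs against 145 background genes, p = 2.56e-12 and an adjusted p of 4.95e-11, rank 15 of 290 pathways. In the authors' deposited table, 66.9% of the 290 passed an adjusted p of 0.05. The 77 IDs are 53.1% of the background number, the 67 Entrez genes are 46.2% (37.9% to 54.7%), and the 51 genes listed under their own protein-coding ID, those left out above included, are 35.2% (27.4% to 43.5%). The share of all protein-coding genes in the gene table was 25.2% (5526 of 21900). That share counts every RefSeq protein-coding gene, whether or not MIN6 cells express it, because no RNA level was available. Comparisons with 25.2% are therefore not matched for expression, and a higher share was not tested against expressed genes. No set test was run here. In the pathway row 66.2% of the IDs were protein-coding genes in RefSeq, against a median of 79.7% over the 176 pathways with at least 20 IDs, which placed it at rank 23 from the lowest.

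Lists drawn up by role from general knowledge, with earlier results of these data known, share most of their listed genes with the pathway row and are no independent evidence. They held 155 genes, of which 54 (34.8%, 27.4% to 42.9%) were in the gene table under their own ID. The share of all protein-coding genes, expressed or not, was 25.2%. Cullin-complex genes had 18 of 35 (51.4%, 34.0% to 68.6%) and RING or U-box genes 15 of 34 (44.1%, 27.2% to 62.1%). Both lists cover only part of their families, so these are not family shares. By the deposited domain text, 96 listed protein-coding genes carry a RING-type zinc finger and 30 an F-box domain. The broader GO terms described below gave 30.0% for ligase activity and 41.2% for the cullin-RING complex. E1 genes had 3 of 8 (37.5%), E2 genes 11 of 36 (30.6%, 16.3% to 48.1%), HECT genes 5 of 26 (19.2%, 6.55% to 39.4%) and APC/C genes 2 of 16 (12.5%, 1.55% to 38.3%). The intervals cover counting error only, and no difference between roles was tested. Of the genes on these lists that were in the gene table, 4 in all were outside the pathway row. They included Cul9 with 2 lines and Hectd4 and Dcaf1 with 1 line each. That number follows from how the lists were drawn up and does not count every listed ligase gene outside the row. The GO term for ligase activity listed 60 genes, 12 of them in the set described here. Of the 96 genes with a RING-type zinc finger, 7 were in the set, which leaves out 11 genes of the row.

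**Figure D3:**
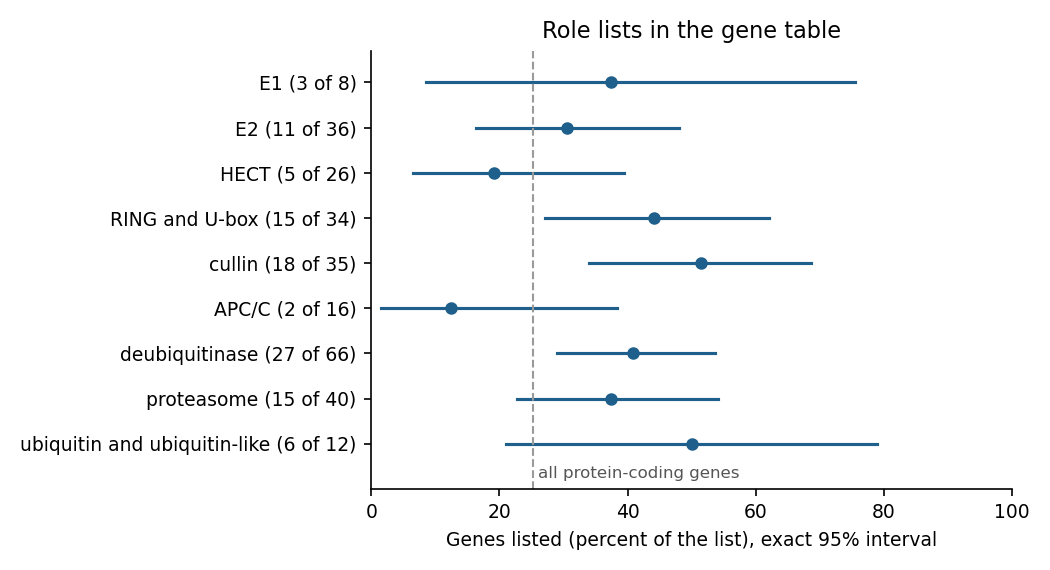
Percent of each list found in the gene table (horizontal axis; points) with exact 95% intervals (lines); the dashed line is the 25.2% of all protein-coding genes. Points run from 12.5% for the APC/C to 51.4% for cullin-complex genes. The dashed line counts genes whether or not they are expressed.

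Genes of the role lists are called absent here where their own ID was not in the gene table. Birc6, Ube2c and Herc1, named below as absent, are in the set through other models only. Absent E2 genes, in alphabetical order, began with Birc6, Ube2c, Ube2d2a, Ube2d2b, Ube2d3, Ube2e1, Ube2e3 and Ube2f. Ube2d1 and Ube2e2 were thus listed without these paralogs. Absent HECT genes began with Arel1, Hace1, Hectd2, Hectd3, Hecw1, Hecw2, Herc1 and Herc2, and absent RING or U-box genes with Aire, Birc3, Cbl, Cblb, Cblc, Cop1, Map3k1 and Mgrn1. Of the cullin list, Btrc, Cul4a, Cul4b, Cul5, Ddb1, Ddb2, Det1 and Dtl were absent, which takes in both Cul4 scaffolds and the Cul4 adaptor Ddb1, while the Cul4 receptor Dcaf1 was listed. Skp1, the adaptor of Cul1, and Vhl, a receptor of Cul2, were absent too; these 2 were singled out after the table was seen. Absent APC/C genes included Anapc1, Anapc5, Anapc7, Anapc10, Anapc11, Anapc13, Anapc15 and Anapc16.

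Steps beside conjugation were listed as follows, against 25.2% of all protein-coding genes, expressed or not. The list of deubiquitinases, which remove ubiquitin, also took in related genes such as Cops5, Eif3h and Psmd7. It had 27 of 66 genes in the gene table (40.9%, 29.0% to 53.7%), led by Usp10 with 4 lines. Psmd7 and Psmd14 stand both in this list and in the proteasome list. Proteasome genes had 15 of 40 (37.5%, 22.7% to 54.2%), with Psmd4 and Psmd6 on 3 lines each, and genes for ubiquitin and ubiquitin-like proteins had 6 of 12 (50.0%), with Nedd8 among them and Ubb absent. None of the 56 genes is among the 22 genes of the authors' autophagy peak table, the only table with a fold change per peak, so no direction can be given for any of them.

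The GO table counts genes by term, and its shares are set here against the 26.0% (5409 of 20770) of background genes found in its gene lists. The authors' deposited table gives a larger total of genes with a peak, 10022 or 48.3% of the background. That total exceeds the 9225 IDs of the gene table, and what it counts is not given. Against 48.3%, most shares below are lower, the Cul3-RING and regulatory particle shares excepted. The p-values of all these terms in the authors' deposited table are 1, also for the terms above 48.3%. The test behind them is not given, so they are not read here as a lack of enrichment. Protein ubiquitination had 262 of 700 genes (37.4%, 33.8% to 41.1%), 31 of them among the 56. Ubiquitin ligase complex had 106 of 271 (39.1%), cullin-RING complex 63 of 153 (41.2%), and within it SCF complex 25 of 59 (42.4%) and Cul3-RING complex 18 of 34 (52.9%, 35.1% to 70.2%). Besides Keap1 and Klhl13, the Cul3 term listed receptors such as Klhl2, Klhl20, Klhl22, Klhl24 and Klhl25. Cul2-RING complex had 7 of 15 (46.7%, 21.3% to 73.4%) and Cul4-RING complex 12 of 34 (35.3%, 19.7% to 53.5%). The Cul4 term listed none of the 56 genes under their own ID, but it held the receptor genes Dcaf1, Dcaf4, Dcaf7, Dcaf8, Dcaf11 and Dcaf12. Conjugating enzyme activity had 11 of 39 (28.2%), ligase activity 60 of 200 (30.0%) and the anaphase-promoting complex 5 of 23 (21.7%). Of these 5, Anapc2 and Anapc4 are in the APC/C role list, and the others were Aurkaip1, Rbx1 and Anapc15-ps, named as a pseudogene.

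By chain type, K48-linked ubiquitination, the linkage best known for proteasomal degradation, had 23 of 56 genes (41.1%, 28.1% to 55.0%), 9 of them in the set described here. K63-linked ubiquitination, known from signalling and DNA damage, had 16 of 46 (34.8%), and K11-linked ubiquitination, known from the APC/C, 8 of 30 (26.7%). Protein sumoylation had 18 of 45 (40.0%), with Mdm2, Sae1 and the 4 PIAS genes from the set, and protein neddylation 5 of 18 (27.8%), with Uba3. The proteasome regulatory particle had 12 of 23 (52.2%, 30.6% to 73.2%) and the proteasome core complex 4 of 21 (19.0%, 5.45% to 41.9%). The terms were chosen after their counts were seen, they share genes, and differences between them were not tested.

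**Figure D4:**
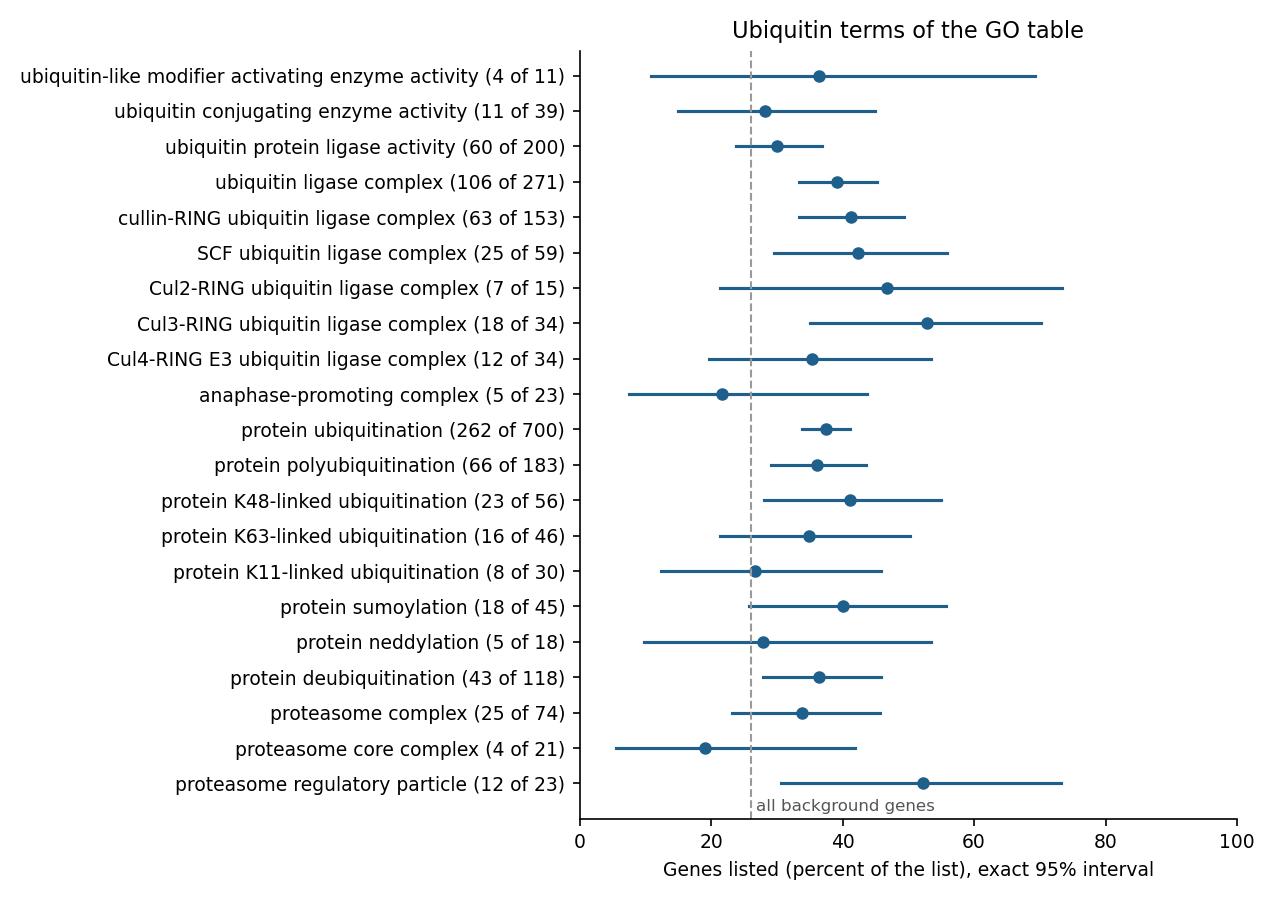
Percent of each GO term's background genes that the authors' table lists (horizontal axis; points) with exact 95% intervals (lines); the dashed line is the 26.0% of all background genes. Shares run from 19.0% for the proteasome core complex to 52.9% for the Cul3-RING complex.

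Of the 56 genes, 32 also stood in other rows of the KEGG table. The Jak-STAT row held 6, the PIAS genes with Socs1 and Socs3, and the insulin signaling row held 2, Socs1 and Socs3. The p53 row held Mdm2, Rchy1 and Siah1b, and the row for apoptosis in multiple species held Birc2, Xiap and, through its other model, Birc6. The cell cycle row held 7, of which Anapc2, Cul1, Mdm2 and Skp2 were listed under their own ID, while Cdc20 and Cdc26 came from pseudogene models and Rbx1-ps is a pseudogene record. The HIF-1 row held Cul2, Elob, Eloc and Rbx1-ps. Protein processing in the endoplasmic reticulum held Cul1, Fbxo2 and Ube2d1 together with Ube4b and Rbx1-ps. These are shared annotations of the same listed genes and add no separate measurement.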

How the data were processed

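Immunoprecipitation of RNA fragments used an antibody against m6A, and these libraries and their inputs were sequenced in read pairs, per the labels' protocols. Of tools and builds, the submitters' processing notes list HOMER 4.9.1, BWA 0.7.12 and mm10. The caller of differential peaks and its thresholds are not given in the sources used here. The deposited tables hold gene IDs per line and counts of genes per pathway and GO term. They also hold the authors' p-values; those of the KEGG table come from a hypergeometric test or Fisher's exact test with Benjamini-Hochberg adjustment, as its header states, and the test behind the GO table is not given. These counts are of genes, not reads, and the depth is unknown.

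Entrez IDs were paired with Ensembl IDs in the pathway row, and a gene was left out where any of its IDs, or the main ID of its symbol, stood in either GO row. Names came from a table of gene IDs (9217 of 9225 matched), classes and bounds from RefSeq GRCm38.p6 by symbol. The deposited Entrez number of Ube2n-ps1 has no RefSeq entry, and its symbol was used. Overflow lines of long GO lists were joined. Intervals are exact Clopper-Pearson at 95% and cover counting error only. No test between the arms was possible, since each has 1 IP and 1 input library. The members and lists were chosen with earlier results of these data known. The roles of the members were assigned after the row was seen, and the GO terms were chosen after their counts were seen. Every member was to be named under its role (a few genes are not reported here), and absent list genes up to 8 per role in alphabetical order. Parsing and selection were tested on simulated tables. Alternatives were keeping the left-out genes, counting IDs, dropping unnamed models, own ID or deposited symbol for lines, the mean, named genes as background, distinct GO IDs and, added after the data were seen, own protein-coding IDs only. The scripts ran under Python 3.11.15 with SciPy 1.17.1 and NumPy 2.4.6, and figures were drawn with Matplotlib 3.10.9.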

Additional observations from a re-analysis of the deposited data

How the results depend on the processing

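The set of 56 genes was 67 with the genes of the DNA repair and segregation rows kept, 66 with each Ensembl ID counted, 39 without unnamed models and pseudogenes and 40 with own protein-coding IDs only, all within 1.5 times. The median of 2.00 lines per gene was 1.00 with own Ensembl IDs only and 1.00 when matched by deposited symbol, since these settings leave out the lines of other gene models; it was 2.00 with the left-out genes kept, and the mean was 1.89. The pathway share of 46.2% was 53.1% by Ensembl IDs and 38.6% without the left-out genes, both within its interval, and 35.2%, outside it, with own protein-coding IDs only, a setting added after the data were seen that drops 16 of the 67 genes. The share of all protein-coding genes, 25.2%, was 26.9% over those with a full name. Matching the role lists by deposited symbol and counting distinct IDs of the GO terms gave back the same shares in 10 of 10 lists and 21 of 21 terms; these settings reread the same tables and do not show stability. The count of 0 autophagy peaks in the set stayed 0 with the left-out rows added. No paired analysis was possible because no table gives a value per library and each arm has 1 library of each kind. The unknown depth limits every absence: these files cannot show that a gene outside the gene table had no peak.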
